A study of Mus musculus with 6 samples.

Results

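The 5mC peaks of mouse cells after 3 days of factor induction were set against the 5mC peaks of an induced pluripotent stem (iPS) cell line from the same system. All peaks of both lists were taken, 165869 from the day-3 library and 61171 from the iPS library, 227040 of the 663518 peaks in the 6 lists of the series. The cells belong to a secondary reprogramming system of the strain OG2-GFP/Rosa26-M2rtTA. In such a system fibroblasts come from mice made from iPS cells, and doxycycline switches the same integrated factors on again through a transactivator at Rosa26. The induced factors were Sox2, Klf4, c-Myc and Tet1, and the labels do not name Oct4 among them. The day-3 cells were passage 4 fibroblasts given doxycycline in ES medium, for 3 days, after growth in feeder medium. The iPS cells were 1 line at passage 10 to 15, cultured with LIF on mitomycin C treated feeder fibroblasts. Medium, passage and feeders therefore differed between the stages together with the cell state, and their parts cannot be told apart. Fibroblasts of the same kind at passage 4 without doxycycline gave the 5mC and 5hmC lists that served to class the peaks. Peak lists hold no expression values, so the labelled cell types were not checked against marker genes.

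5mC is the methylated form of cytosine, placed mostly at CpG dinucleotides by the Dnmt enzymes and copied to the new strand when DNA replicates. Tet enzymes oxidise 5mC to 5hmC, which can be a step towards the loss of methylation, either by dilution over cell divisions or by repair. Reprogramming to pluripotency is known to involve a resetting of somatic methylation, and Tet1 is abundant in pluripotent cells. Immunoprecipitation with an antibody against 5mC reports stretches of enriched DNA around methylated cytosines. It gives no methylation level for a single CpG.

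The iPS list was the shorter one by number and by length. It held 0.369 times as many peaks as the day-3 list and covered 0.351 times as many base pairs, 59.7 Mb against 170.1 Mb. Peaks were slightly narrower in iPS cells, with a mean of 976 bp against 1026 bp at day 3. The median gap from a peak to the next was 3.75 kb in the day-3 list and 9.31 kb in the iPS list, so the iPS peaks were also sparser along the genome. Of the iPS peaks 29.0% reached a score of 100, against 53.8% of the day-3 peaks. With that score as a minimum in both lists, the iPS list held 0.199 times as many peaks and covered 0.213 times as many base pairs. Peak numbers and scores both vary with sequencing depth. The read depth of neither library is known, and its part in these differences was not tested.

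Most day-3 peaks had no counterpart in iPS cells, whereas most iPS peaks had one at day 3. A day-3 peak shared at least 1 bp with an iPS peak in 29.4% of cases (95% Wilson interval 29.2 to 29.6), 48782 peaks, and 117087 peaks were not found again. From the other side, 80.5% of the iPS peaks (80.2 to 80.8) lay on a day-3 peak and 11944 did not. Both lists had 45.2 Mb in common, which was 26.5% of the day-3 length and 75.7% of the iPS length. The shares of 29.4% and 80.5% over the whole lists are the background against which the classes below are read. Few peaks lay near the limit of the rule. Among day-3 peaks, 370 were shared by 50 bp or less, and 468 missed an iPS peak by 50 bp or less.

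Where peaks of both stages overlapped, the iPS peak was usually the narrower one. A single day-3 peak faced a single iPS peak at 44327 sites. These pairs were chosen by their overlap, which keeps centres close, and the centres lay a median of 86 bp apart. The median width at these sites was 1035 bp at day 3 and 898 bp in iPS cells, the iPS peak was the narrower in 70.5% of the pairs, and it lay wholly inside the day-3 peak in 42.4%. The reverse nesting occurred in 12.4%. Broken or joined peaks were uncommon. There were 1720 day-3 peaks that met a pair of iPS peaks and 118 that met 3 or more, with median widths of 2379 and 4530 bp, and 1467 iPS peaks spanned a pair of day-3 peaks.

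Few unshared day-3 peaks had an iPS peak close by. Their median distance to the nearest iPS peak was 7.51 kb, and 11.5% had one within 1 kb and 57.6% within 10 kb. Unshared iPS peaks lay nearer to the other list, at a median of 2.22 kb, and 29.8% had a day-3 peak within 1 kb. The day-3 list is the denser one, which by itself shortens this distance. The sparser iPS list likewise lengthens the distance of the day-3 peaks, and whether peaks were displaced was not tested.

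The share found again depended strongly on the score of the peak within its own list. Each list was divided into 10 groups of equal size by score, called deciles. In the lowest decile of the day-3 list 10.3% of the peaks (9.84 to 10.8) lay on an iPS peak, and in the highest 67.8% did (67.1 to 68.5). The share was higher in each decile than in the decile below it. Among the 1000 best-scoring day-3 peaks 86.6% had an iPS counterpart, and among the best 10000 it was 72.7%. The same held for iPS peaks on day-3 peaks, from 64.7% (63.5 to 65.9) in the lowest to 97.2% (96.7 to 97.5) in the highest decile. Absence from the iPS list was thus most frequent among low-scoring day-3 peaks, but even in the highest decile only 11249 of 16586 peaks had an iPS counterpart. Shared day-3 peaks had a median score of 182.65 and a median width of 1043 bp, against 91.25 and 851 bp for unshared ones.

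**Figure D1:**
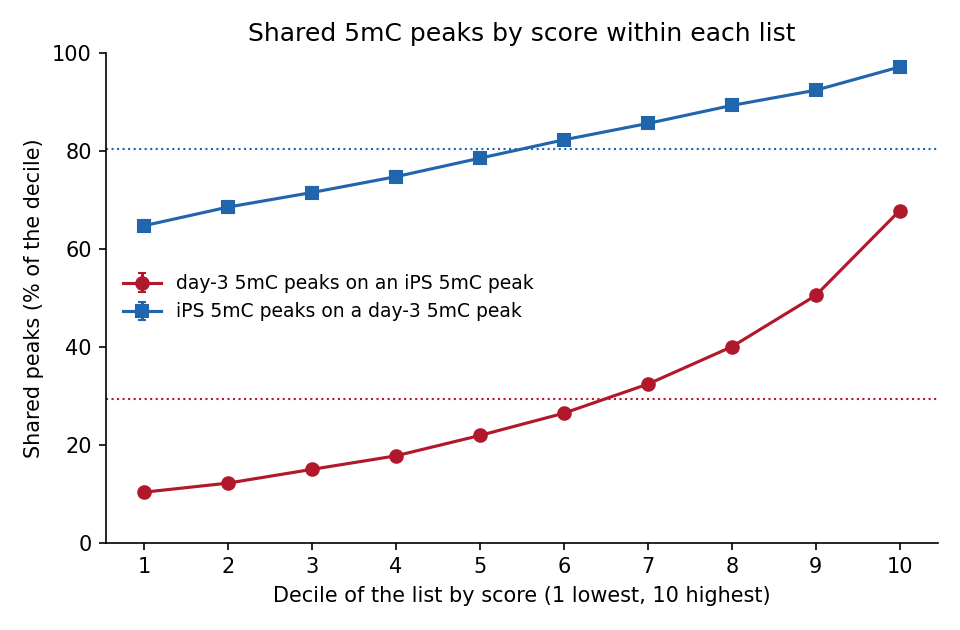
Share of 5mC peaks with a counterpart in the other 5mC list (vertical axis, percent) by decile of the score within the counted list (horizontal axis). Points are shares with 95% Wilson intervals, mostly smaller than the symbols, and dotted lines mark the whole-list shares of 29.4% (day-3 peaks) and 80.5% (iPS peaks). The day-3 share goes from 10.3% to 67.8% and the iPS share from 64.7% to 97.2%.

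Wide peaks were the more often shared. Of the day-3 peaks up to 600 bp wide 9.62% were shared, and of those over 3000 bp 86.6% (84.8 to 88.1, 1378 of 1592 peaks). All 226 iPS peaks wider than 3000 bp lay on day-3 peaks. Wide peaks also had high scores. Among peaks of like score the difference was smaller. Averaged over the deciles, day-3 peaks wider than the median of their decile were shared in 31.2% of cases and the narrower ones in 27.6%.

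Lists of equal length gave a different balance. The 61171 best-scoring day-3 peaks, those with a score of at least 141.25, lay on iPS peaks in 49.0% of cases (48.6 to 49.4), and 51.3% of the iPS peaks (50.9 to 51.7) lay on them. The iPS peaks then covered 0.706 times the length of the day-3 peaks, 59.7 Mb against 84.5 Mb, because the best day-3 peaks were wider, with a median of 1197 bp. Another 17852 iPS peaks, 29.2% of that list, met only day-3 peaks below this score. With a minimum score of 100 in both lists, 17.0% of the day-3 peaks and 84.8% of the iPS peaks were shared.

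Most of the best-scoring day-3 peaks were not among the best-scoring iPS peaks. With the 1000 best of each list, 33.6% of the day-3 peaks (30.7 to 36.6) lay on iPS peaks, although 86.6% of the same peaks lay on the whole iPS list. The share was 36.8% with the best 5000, 42.5% with the best 20000 and 46.8% with the best 40000. Fibroblast and iPS lists cut in the same way shared 40.9% (37.9 to 44.0) of the best 1000 fibroblast peaks and 44.7% (44.0 to 45.3) of the best 20000. The corresponding shares of fibroblast peaks on day-3 peaks were 72.0% and 74.0%. At each of these lengths the day-3 list overlapped the iPS list a little less than the fibroblast list did, by 1.22 to 7.30 points. All 3 pairs rest on the same 3 libraries, so the shares are given side by side and the difference between them was not tested.

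**Figure D2:**
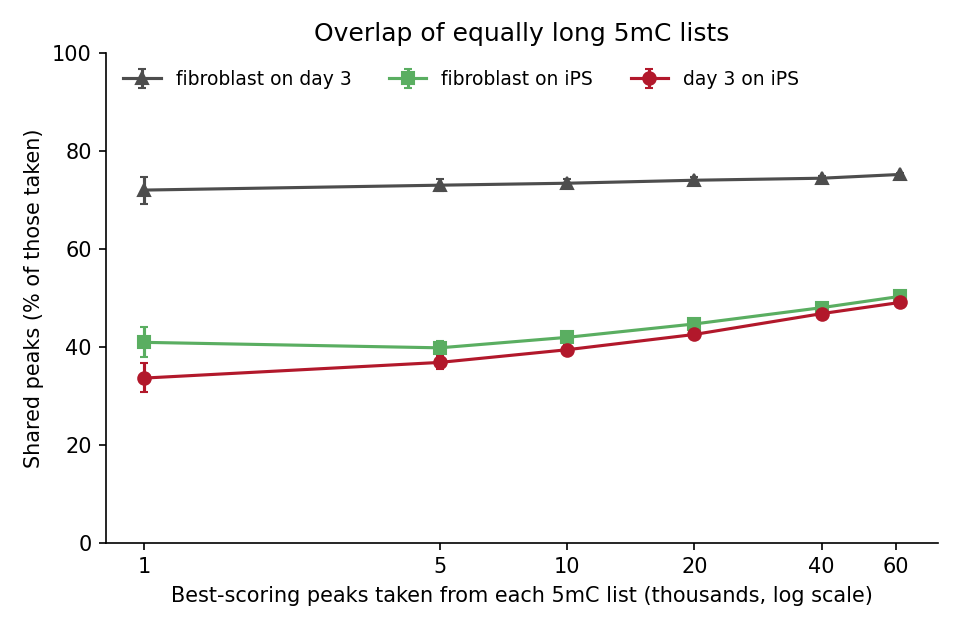
Share of the best-scoring peaks of one 5mC list that lie on the equally many best-scoring peaks of another (vertical axis, percent) against the number taken from each list (horizontal axis, in units of 1000 peaks, log scale), with 95% Wilson intervals. Day-3 on iPS peaks goes from 33.6% to 49.0%, close to and below fibroblast on iPS peaks, while fibroblast on day-3 peaks stays between 72.0% and 75.2%.

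Peaks that day 3 shared with fibroblasts were found in iPS cells far more often than peaks first listed at day 3. Of the 92878 day-3 peaks on a fibroblast 5mC peak, 42.3% (42.0 to 42.6) had an iPS counterpart, and of the 72991 others 13.0% (12.8 to 13.3) did. The first group also had the higher scores, with a median of 166.3 against 74.11. The order was the same in each of the 10 deciles of the score, with differences of 11.8 to 56.5 points. Averaged over the deciles, the shares were 35.3% and 15.3%. Among iPS peaks the contrast was larger, since 95.7% of those on fibroblast 5mC (95.5 to 95.9) and 48.5% of the rest (47.8 to 49.2) lay on a day-3 peak.

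A group of strong 5mC peaks was listed at day 3 without a fibroblast counterpart. Few of them were listed in iPS cells, as among day-3 peaks off fibroblast 5mC in general. They were singled out after their values were seen. In the highest decile of the day-3 list, 16378 peaks lay on fibroblast 5mC and 208 did not. Of these 208 peaks, on 20 chromosomes, 12.0% (8.28 to 17.1), 25 peaks, had an iPS 5mC counterpart, against 68.5% (67.8 to 69.2) of the 16378. The share was 13.0% over all 72991 day-3 peaks off fibroblast 5mC and 22.1% over those in the ninth decile. The 208 peaks were thus near the share of their whole class, without the rise that went with score in the classes on fibroblast 5mC. Their scores were somewhat lower, with a median of 426.5 against 541.1, and their widths alike, with medians of 1770 and 1720 bp. A day-3 5hmC peak was present at 84.1% of the 208 (78.6 to 88.5) and at 49.99% of the others (49.2 to 50.8). In iPS cells 47.6% of the 208 had 5hmC without 5mC and 40.4% had neither mark, compared with 26.3% and 5.17% of the others. Over all day-3 peaks off fibroblast 5mC but with day-3 5hmC, these shares were much the same, 48.6% and 40.1%. Counted with or without 5mC, iPS 5hmC was less frequent at the 208, at 57.7% against 91.0% of the others. The nearest fibroblast 5mC peak was a median of 3.61 kb from the 208. The highest-scoring of the 208 lay on chromosome 7 from 20212184 to 20214757, with a day-3 5hmC peak and neither mark in iPS cells. The next was on chromosome X from 93160344 to 93164530, with 5hmC alone in iPS cells, and the third, on chromosome 8 from 119776837 to 119780387, had both marks there.

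Day-3 5mC peaks were next classed by the marks listed in iPS cells at the same place. Over the whole list 7.99% had 5mC alone (7.86 to 8.12), 21.4% had both marks (21.2 to 21.6), 35.8% had 5hmC alone (35.5 to 36.0) and 34.8% had neither (34.6 to 35.0). A shared 5mC peak therefore usually carried 5hmC as well, as 72.8% of the shared and 50.7% of the unshared day-3 peaks lay on an iPS 5hmC peak. The iPS 5hmC list was the longest of the series, with 174079 peaks. By score, the share with neither mark was 57.2% in the lowest and 8.72% in the highest of 5 equal groups, and the share with both marks was 5.62% and 53.0%. The share with 5hmC alone varied less, between 31.6% and 41.1% over the 5 groups, and was highest in the second-best group.

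The outcomes differed between classes by fibroblast 5mC and day-3 5hmC, which also differed in score. Of the day-3 peaks with neither fibroblast 5mC nor day-3 5hmC, 57.1% (56.7 to 57.5) had no mark in iPS cells, 29.3% had 5hmC alone, 6.52% had both and 7.09% had 5mC alone. Where fibroblast 5mC and day-3 5hmC were both present, 13.7% (13.3 to 14.1) had no mark, 44.5% had 5hmC alone, 37.9% had both and 3.98% had 5mC alone. Persistence as 5mC alone was most frequent with fibroblast 5mC and without day-3 5hmC, at 12.2% (11.9 to 12.5). 5hmC alone was most frequent without fibroblast 5mC and with day-3 5hmC, at 48.6% (47.9 to 49.4). The median day-3 score was 72.14 with neither earlier mark, 81.68 with 5hmC only, 150.9 with fibroblast 5mC only and 210.9 with both.

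Among peaks of like score these classes differed less in the share without any iPS mark. As means over the score deciles, added after the values were seen, it was 50.8% with neither earlier mark and 19.05% with both. It was the highest of the 4 classes in 9 of 10 deciles for the former and the lowest in 9 of 10 for the latter. Persistence as 5mC alone was most frequent with fibroblast 5mC and without day-3 5hmC in all 10 deciles, at a mean of 12.1%. The order of 5hmC alone turned, with 49.6% where both earlier marks were present and 48.4% with day-3 5hmC only, and the former was the highest in 8 of 10 deciles. Each decile had equal weight in these means. The highest decile held only 33 of the 55088 peaks with neither earlier mark and 175 of the 17903 with day-3 5hmC only.

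**Figure D3:**
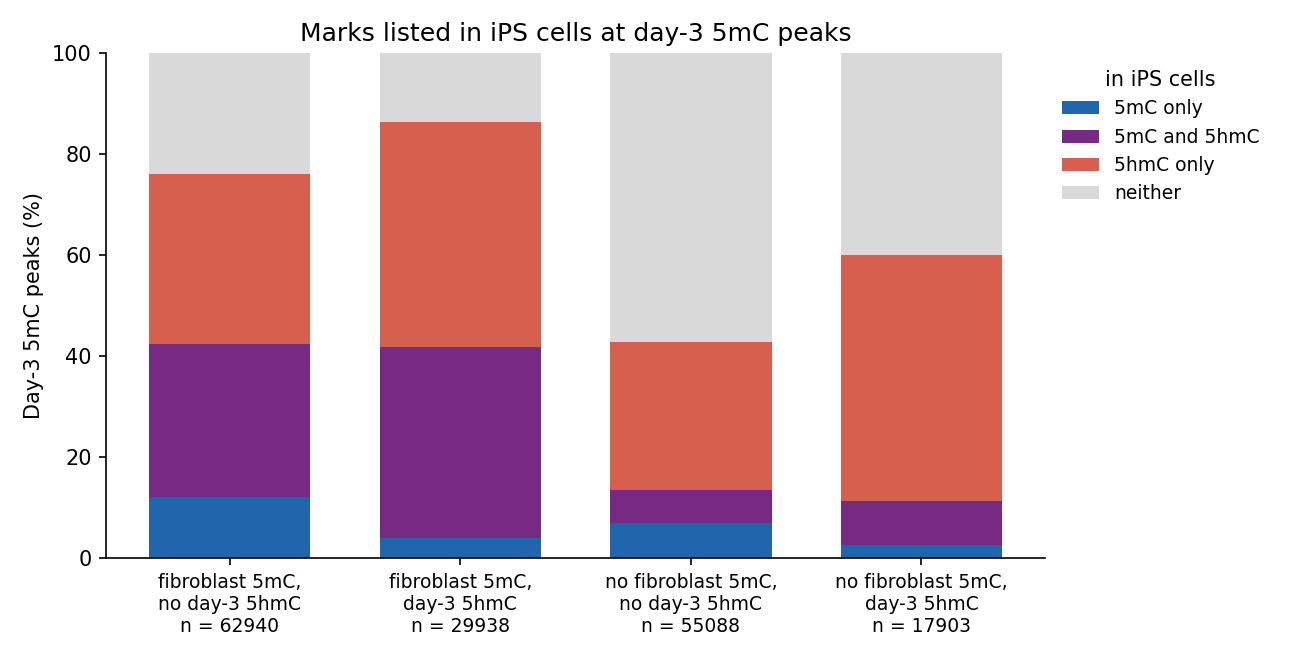
Marks listed in iPS cells at day-3 5mC peaks, as percent of the peaks (vertical axis), for 4 classes by fibroblast 5mC and day-3 5hmC (bars, with the number of peaks below). The classes differ in score, and the part without any mark is 57.1% with neither earlier mark and 13.7% with both, and 5mC alone is at most 12.2% in each bar.

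Among day-3 peaks, the presence of 5hmC at day 3 made little difference to the share over the whole list and a larger one at equal score. Of the 47841 day-3 5mC peaks with a day-3 5hmC peak 30.4% (30.01 to 30.8) had an iPS 5mC counterpart, and of the 118028 without it 29.0% (28.7 to 29.3). The peaks with 5hmC had the higher scores, with a median of 138.04 against 98.79, and were wider, with medians of 981 and 869 bp. Within each of the 10 deciles of the score, the peaks with 5hmC were the less often shared, with differences of -1.02 to -11.9 points. Averaged over the deciles, 25.4% of the peaks with and 31.4% of those without day-3 5hmC were shared. In the ninth decile, where they were furthest apart, the shares were 43.0% and 55.0%. The averaging over deciles was chosen after the values were seen. The sign of the whole-list difference also turned with other overlap rules, to -3.06 points when 50% of the peak had to be covered, -2.00 points when its centre had to lie inside and -7.05 points with equally many best-scoring peaks of each list. Counted from the iPS side the order was the opposite. Of the iPS peaks, 88.1% with day-3 5hmC and 77.8% without it lay on a day-3 5mC peak. Those with it were the more often shared in all 10 deciles of the iPS score, at 86.8% and 78.5% averaged over them. On fibroblast 5mC the shares with and without day-3 5hmC were closer. They were 97.6% and 96.6% for iPS peaks with iPS 5hmC, and 93.5% and 91.2% for those without it. Off fibroblast 5mC they were 60.6% and 52.2%, and 47.8% and 42.5%, in the same order.

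The lower share of day-3 peaks with day-3 5hmC appeared both on and off fibroblast 5mC, in 9 of 10 deciles each. On fibroblast 5mC it was largest in the ninth decile, with 45.5% of the peaks with 5hmC and 56.1% of those without. The exception was the lowest decile, with 20.9% and 19.8%. Off fibroblast 5mC the shares in the ninth decile were 16.6% and 28.8%, and the exception was the highest decile, with 13.7% of 175 peaks and 3.03% of 33. Peaks with iPS 5hmC, in contrast, were shared more often than peaks without it in all 10 deciles, at 32.3% and 23.5% averaged over them. The same was true of fibroblast 5hmC, at 41.4% and 28.0%.

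**Figure D4:**
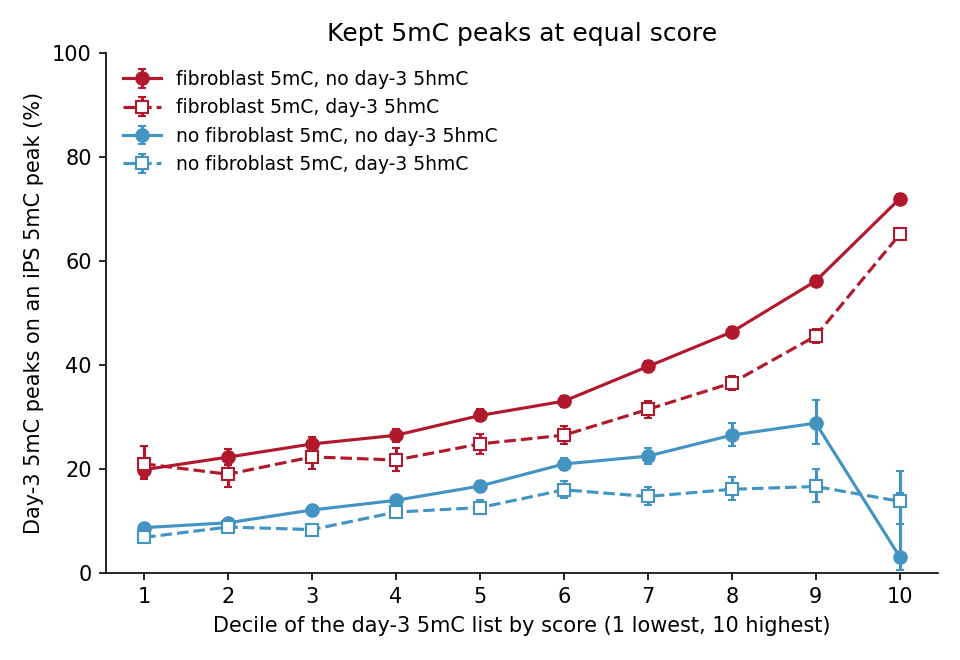
Share of day-3 5mC peaks on an iPS 5mC peak (vertical axis, percent) by decile of the day-3 score (horizontal axis), for peaks on fibroblast 5mC (red) and off it (blue), without day-3 5hmC (filled circles) and with it (open squares), with 95% Wilson intervals. The red lines lie above the blue ones in every decile, and the dashed line lies below the solid one of its colour except at the lowest decile in red and the highest in blue.

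The 11944 iPS peaks without a day-3 counterpart were weak and narrow, with a median score of 62.97 and a median width of 795 bp, against 80.98 and 906 bp for the shared ones. Of these peaks 39.5% (38.6 to 40.4) overlapped none of the other 4 lists, compared with 7.39% of the shared iPS peaks. Fibroblast 5mC was present at 15.0% (14.4 to 15.7) of them and at 80.6% of the shared ones. Fibroblast 5hmC showed the opposite order, with 23.7% (22.9 to 24.5) of the unshared and 15.5% (15.2 to 15.9) of the shared iPS peaks. In all 10 deciles of the iPS score, peaks on fibroblast 5hmC were the less often found at day 3, with differences of -7.63 to -16.2 points.

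A day-3 peak was more often shared after a shared peak than after an unshared one, though most runs of either kind were short. The median run held 1 shared or 2 unshared peaks. At least 10 peaks were held by 35 of the 30834 shared runs and 2281 of the 30836 unshared runs. A day-3 peak that followed a shared peak was itself shared in 36.8% of cases, and one that followed an unshared peak in 26.3%. For neighbours within 2 kb these shares were 45.6% and 30.5%, and for neighbours over 50 kb apart they were 14.8% and 13.5%. Isolated peaks were the least often shared. Day-3 peaks with no other day-3 peak within 50 kb were shared in 9.64% of cases (8.70 to 10.7), and those with over 20 others in 37.6% (37.1 to 38.0). The median score went from 75.76 to 140.7 between these groups.

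The longest run of consecutive day-3 peaks without an iPS counterpart was on chromosome X from 7226646 to 7856328. It held 57 peaks, 9.42% of the day-3 5mC peaks of the chromosome in 0.390% of its covered span. Of these 57 peaks, 17 lay on fibroblast 5mC and 19 on iPS 5hmC. Over the whole of chromosome X, 11.6% of the day-3 peaks were shared, against 29.4% over the whole list. On that chromosome 30.9% of the day-3 peaks lay on fibroblast 5mC and 27.4% on iPS 5hmC. In the stretch of the run the fibroblast 5mC list had 19 peaks, the day-3 and iPS 5hmC lists had 38 and 34, and the iPS 5mC list had 1, which lay between day-3 peaks. The next runs were on chromosome 7 from 75958404 to 77743263, with 51 peaks, and on chromosome 14 from 80887306 to 87128195, with 49. The run on chromosome 14 was sparse, with 49 peaks over 6241 kb and 9 of them on fibroblast 5mC. Over the whole list 45.8% of the unshared day-3 peaks lay on fibroblast 5mC. The longest runs of shared peaks had 19 peaks each, on chromosome 1 from 90106479 to 90191600 and on chromosome X from 120773523 to 122845694. All 19 peaks of either run lay on fibroblast 5mC. Most shared day-3 peaks of the whole list did so too, 80.5% of them, and 72.8% lay on iPS 5hmC. The run on chromosome 4 from 137090156 to 137133246 had 16 shared peaks, 16 of them on fibroblast 5mC and 15 on iPS 5hmC. Another run, later in chromosome order, also had 16.

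The difference in coverage was spread over the genome. Among 10148 windows of 100 kb with at least 5 kb of 5mC peaks in either list, 80.3% were covered at least 2-fold less in iPS cells, and 0.0985%, 10 windows, at least 2-fold more. The median ratio of iPS to day-3 coverage was 0.339, with 10% of the windows below 0.128 and 10% above 0.589. In 344 windows the iPS list had no peak, and in 54 it covered more than the day-3 list. Over all windows classed by day-3 coverage, with no minimum, the ratio of the summed lengths was higher where day 3 was richly covered. This ratio of sums was 0.398 for the 751 windows with more than 30 kb of day-3 5mC and 0.283 for the 3695 windows with 2 to 5 kb. Counted without a minimum, the day-3 list covered more in 96.6% of the windows that differed, and in 63.1% when both lists were cut to the same length by score.

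The iPS 5hmC coverage differed between windows by the ratio of iPS to day-3 5mC, without a steady order. In the 697 windows with an iPS to day-3 ratio of 5mC coverage up to 0.1, 5hmC peaks covered means of 9.83 kb (day 3) and 10.6 kb (iPS). The iPS mean was 14.5 kb for ratios from 0.1 to 0.25, 18.1 kb from 0.25 to 0.5, 17.9 kb from 0.5 to 1 and 11.9 kb above 1. 5hmC covered more in iPS cells than at day 3 in 54.5%, 68.0%, 80.2%, 86.8% and 64.8% of the windows of these 5 classes, from the lowest ratio to the highest. The classes also differed in 5mC, with day-3 means of 10.2 kb in the lowest, 16.5 kb in the middle and 9.63 kb in the highest class.

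**Figure D5:**
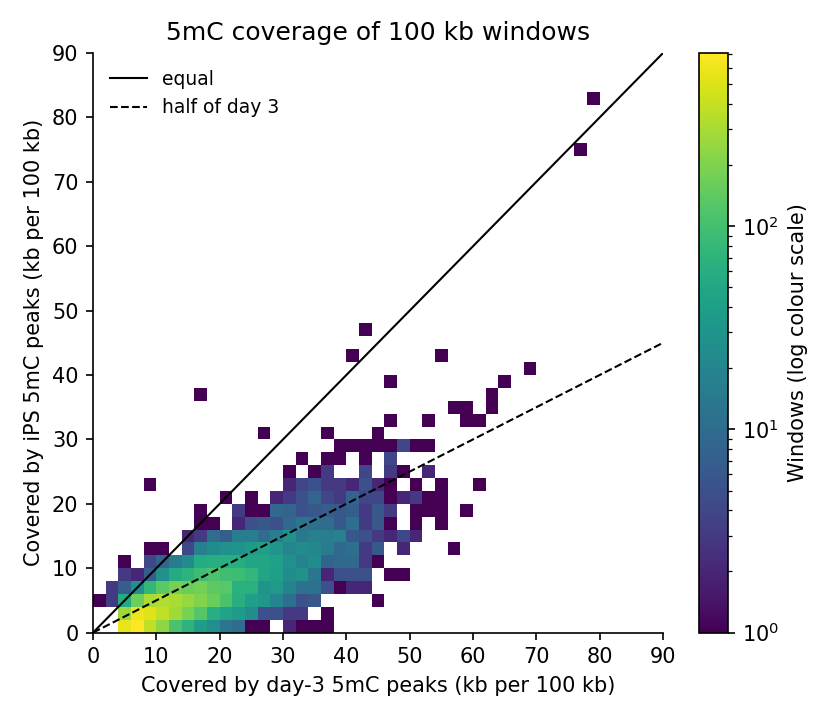
Length covered by 5mC peaks in 100 kb windows at day 3 (horizontal axis, kb) and in iPS cells (vertical axis, kb), for the 10148 windows with at least 5 kb in either list. Colour gives the number of windows on a log scale, the solid line marks equal coverage and the dashed line iPS coverage 2-fold below day 3. Most windows lie below the dashed line, and 54 lie above the solid one.

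The 5 windows with the largest drop in kb were rich in day-3 5mC, as a large drop in kb requires. Their 5hmC coverage in iPS cells was 33.8 to 44.3 kb. It was much like that of the 751 windows with more than 30 kb of day-3 5mC, which had a mean of 36.5 kb. First came chromosome 10 from 79400001 to 79500000, where 31 day-3 5mC peaks spanned 57.2 kb and 12 iPS peaks 12.7 kb. Fibroblast 5mC spanned 39.4 kb of it, and the 5hmC coverage was 4.98 kb (fibroblasts), 40.7 kb (day 3) and 43.5 kb (iPS). Chromosome 7 from 52200001 to 52300000 had a 5mC coverage of 58.8 kb (day 3) against 19.4 kb (iPS), with 41.4 and 43.3 kb of 5hmC. Chromosome 2 from 165600001 to 165700000 had 48.2 against 9.91 kb of 5mC, with 43.7 and 44.3 kb of 5hmC. In these 3 windows 5hmC was already nearly as wide at day 3 as in iPS cells. Their day-3 5hmC coverage was above that of the 751 windows, which had a day-3 mean of 21.0 kb. The other windows were a pair on chromosome 4, in which 5hmC was wider in iPS cells. From 140600001 to 140700000 the 5mC coverage was 47.3 against 8.09 kb and that of 5hmC 22.8 against 39.7 kb. From 135700001 to 135800000 the values were 44.95 against 5.91 kb for 5mC and 24.3 against 33.8 kb for 5hmC.

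Few windows had more 5mC in iPS cells. The largest difference was on chromosome 3 from 25400001 to 25500000, with a 5mC coverage of 39.5 kb (fibroblasts), 16.8 kb (day 3) and 37.7 kb (iPS). The day-3 list was thus the low one of the 3. Fibroblast 5hmC was wide in this window, with 40.7 kb, and narrow later, with 7.08 kb (day 3) and 9.66 kb (iPS). On chromosome 2 from 77700001 to 77800000 the 5mC coverage was larger at each stage, with 4.46, 9.96 and 22.9 kb in the same order. Chromosome 14 from 27500001 to 27600000 had 7.75, 5.33 and 11.05 kb. Chromosome Y from 1600001 to 1700000 had 6.77, 2.05 and 7.03 kb, and chromosome X from 121200001 to 121300000 had 9.90, 4.68 and 9.58 kb. In 4 of these 5 windows the day-3 coverage was below both the fibroblast and the iPS coverage. Most of the 54 windows with more iPS than day-3 5mC differed from them in this, since in 66.7% of the 54 the fibroblast coverage was below that of day 3.

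Autosomes differed little and the sex chromosomes stood apart, in opposite directions among day-3 peaks. On the 19 autosomes the share of day-3 peaks with an iPS counterpart ranged from 25.8% on chromosome 3 to 31.6% on chromosome 15, and the iPS list held 0.329 to 0.387 times as many peaks. On chromosome X 70 of 605 day-3 peaks were shared, or 11.6% (9.26 to 14.4), and the iPS list held 0.179 times as many peaks. Fewer X peaks lay on fibroblast 5mC, 187 of 605, but the share was lower in both classes. It was 29.9% (23.8 to 36.9) on fibroblast 5mC and 3.35% (2.01 to 5.54) off it, against 42.3% and 13.1% on autosomes. Of the day-3 X peaks 27.4% lay on iPS 5hmC, against 57.3% of the autosomal ones, while day-3 5hmC was present at 24.8% and 28.8%. From the other side, 62.0% (52.6 to 70.6) of the 108 iPS X peaks lay on a day-3 peak, against 77.0% to 83.7% on the autosomes. On chromosome Y, with 50 peaks in each list, 40 day-3 and 31 iPS peaks were shared. Its day-3 peaks lay on fibroblast 5mC in 88% of cases and had a median score of 165.47. Within the last 5 Mb of the autosomes 33.5% of the day-3 peaks (32.5 to 34.5) were shared, with a median score of 115.26. Within the first 5 Mb of their covered span, on the side of the centromere, it was 28.9% (27.6 to 30.2), with a median score of 107.39. Between these ends it was 29.2% (29.0 to 29.5), with a median score of 106.91. The autosomal iPS peaks were shared in 81.5% of cases in the first 5 Mb, 81.6% in the last 5 Mb and 80.4% between.

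Named peaks showed the range of outcomes. The best-scoring day-3 peak without an iPS counterpart lay on chromosome 6 from 48387808 to 48389693, with a score of 3183.58 and the nearest iPS peak 17.2 kb away. The second, on chromosome 8 from 73390498 to 73395133, was 4636 bp wide, and its nearest iPS peak was 13.2 kb away. Both lay on fibroblast 5mC and had no iPS 5hmC. The other 3 belonged to 15 unshared day-3 peaks with the same score of 3100 and came first in chromosome order, on chromosome 2 from 174108284 to 174113899, on chromosome 3 from 94975768 to 94978452 and on chromosome 4 from 135844768 to 135847640. They had iPS 5mC peaks 0.828, 0.302 and 0.403 kb away and iPS 5hmC peaks in place.

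The best-scoring shared day-3 peak, on chromosome 7 from 7230164 to 7231398, met an iPS peak with nearly the same ends, from 7230153 to 7231447, and all 6 lists had a peak there. The next 4, on chromosome 18 from 38356646 to 38359467, chromosome 8 from 72975049 to 72977271, chromosome 12 from 113972989 to 113978139 and chromosome 11 from 97312495 to 97316393, had scores of 3194 to 3227 at day 3. Their best iPS counterparts had scores of 202.1, 111.84, 212.4 and 539.3. All 4 lay on fibroblast 5mC and on 5hmC of day 3 and iPS cells, and none on fibroblast 5hmC. Scores vary with depth, so the distance between day-3 and iPS scores is not read as a change.

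Among iPS peaks without a day-3 counterpart, the 5 best-scoring all lay on fibroblast 5mC and on fibroblast 5hmC. They were on chromosome 16 from 9037302 to 9038919, chromosome 3 from 25450528 to 25453504 and from 25416032 to 25417475, chromosome Y from 1263267 to 1264792 and chromosome 14 from 120937714 to 120939364. Their scores were 326.8 to 376.01, and 3 of the 5 had a day-3 peak within 1 kb. The 5 best-scoring shared iPS peaks lay on peaks of all 6 lists, the first on chromosome 18 from 3004068 to 3006765 and the second on chromosome X from 166426436 to 166429321. The others, the last pair of them again tied at 3100 with further peaks, were on chromosome 2 from 27350957 to 27354158 and on chromosome 1 from 87487468 to 87490139 and from 90125719 to 90148383. The widest peaks were of this kind too. The widest iPS peak, on chromosome 11 from 3059387 to 3100422, spanned 41036 bp and met a pair of day-3 peaks, of which one, 25402 bp long, was the widest at day 3.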

How the data were processed

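Fragments of genomic DNA carrying 5mC or 5-hydroxymethylcytosine (5hmC) were captured by antibody from cells of 3 stages and sequenced, with 1 library per stage and mark. Per the labels' protocols, 500 ng of adapter-ligated DNA entered each reaction, 14 to 16 cycles of amplification followed, and fragments of 300 to 500 bp were purified. Tools listed in the submitters' processing notes are MACS 1.4.1, Bowtie 0.12.7 and CASAVA 1.8, and the build listed is mm9. Each deposited file lists peaks by chromosome, start, end and score. This score, from the authors' peak calling, was read as 10 times the negative log10 of a p-value (which the files do not state), and served for ranking within a list and, in an alternative, as a common minimum for both lists, which depth can affect. For the control library, caller settings, duplicate handling and read depth the record is the same: not given in the sources used here.

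Peaks sharing at least 1 bp were counted as shared. Shares carry 95% Wilson intervals for the counting error alone, although adjacent peaks are correlated. No test between stages was possible. Covered length was summed per 100 kb window. Python 3.11.15 with numpy 2.4.6, pandas 2.3.3, statsmodels 0.14.6 and matplotlib 3.10.9 was used. Counting was tested on simulated data in 5 runs of 600 peaks, with 0 errors, and gave the same shared numbers as bedtools 2.31.1. Ties in score were ordered by chromosome and start. The alternatives were a score of at least 100, equal numbers of best-scoring peaks, an overlap of 50% of the counted peak, its centre inside the other peak, joining within 1000 bp, autosomes only and 1 Mb windows.

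The regions described, the classes and the lists were chosen with earlier results of these data known. Regions named by rule were the 5 windows with the largest difference in each direction, the 5 best-scoring peaks with and the 5 without a counterpart, the 3 widest peaks of each list, and the 3 longest runs of consecutive day-3 peaks of each kind. Coordinates are on mm9, counted from 1. The gene and promoter tables used here are on another build, so genes, promoters, planned gene lists and sequences were left out.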

Additional observations from a re-analysis of the deposited data

Results flagged for a closer look

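Both marks differed in opposite directions between the same stages, and this difference was not tested, with 1 library per stage and mark. From day 3 to iPS cells the number of 5mC peaks was 0.369 times as large and that of 5hmC peaks 1.50 times as large. The covered length was 0.351 times as large for 5mC and 1.47 times as large for 5hmC.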

How the results depend on the processing

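No paired analysis was possible because each stage and mark had 1 library. When peaks below a score of 100 were left out of both lists, 17.0% of day-3 and 84.8% of iPS peaks were shared, the iPS list had 0.199 times as many peaks and 0.213 times the covered length, and day 3 covered more in 97.8% of windows. When both lists were cut to the same length by score, these shares became 49.0% and 51.3%, the covered ratio 0.706 and the window share 63.1%. The ratio of peak numbers is then 1 by construction and is not given. The shares were 26.1% and 78.5% with an overlap of 50% of the counted peak, and 26.8% and 78.4% with its centre inside. With peaks within 1000 bp joined, 31.6% of day-3 peaks were shared and the ratio of peak numbers was 0.411. Over 1 Mb windows day 3 covered more in 99.4%. On autosomes only, these 5 values stayed within their counting intervals. Autosomes held 165212 of the 165869 day-3 and 61010 of the 61171 iPS peaks, so this setting could hardly move a value. Of 80 values for differences between classes of peaks under these settings, those on autosomes only included, 76 kept their sign. The 4 others all concerned day-3 peaks with against without day-3 5hmC, a difference of 1.42 points, which was -7.05 with equal numbers, -3.06 with 50% overlap, -2.00 with the centre rule and -5.98 averaged over score deciles. Read depth is unknown and limits every comparison of list length.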

Other observations

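Score ranks differed between the lists. Over the 44327 sites with a single peak in each list, Spearman's rho of the scores was 0.412 and that of the widths 0.453, across sites that share the same pair of libraries and are not independent. Of the pairs whose day-3 peak was in the highest decile of the day-3 list, 31.7% had an iPS peak in the highest decile of the iPS list.

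A score of exactly 3100 recurred in both lists and has no stated meaning in the sources used here. It belonged to 192 day-3 peaks with a median width of 4488.5 bp. An iPS counterpart was present at 177 of them, 92.2% (95% Wilson interval 87.5 to 95.2). All 33 iPS peaks with this score lay on day-3 peaks.

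Chromosome M held 2 day-3 and 3 iPS 5mC peaks, all of them shared.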
